A study of Mus musculus with 19 samples.

Results

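The 8 genes Lyz2, Csf1r, Apoe, C1qa, C1qb, C1qc, Adgre1 and Cd68 mark macrophages and monocytes, and they were read here in libraries of sorted T cells. They were chosen by symbol, as 8 of the 25639 genes in each of the CD8 and CD4 expression tables, and all 8 were found in both. The libraries came from tumour-infiltrating CD8+ and CD4+ T cells of mouse liver metastases, collected 30 days after Venus-AKTPM/LOH colorectal cancer cells had been injected into the spleen. All mice carried floxed Tet2, a gene whose product acts on methylated DNA. Vav1CreTet2KO mice (3 CD8 and 3 CD4 libraries) carried Cre under Vav1 control, active across blood cells including macrophages. Cd4CreTet2KO mice (4 CD8 and 3 CD4 libraries) carried Cre under Cd4 control, active in the T cell lineage. Tet2fl/fl mice (3 CD8 and 3 CD4 libraries) were the controls without Cre. Age and sex of the mice are not stated in the labels. In all, 11 animals gave 19 libraries, and 8 animals gave both a CD8 and a CD4 library. The T cells were sorted on CD45, CD3ε and CD4 or CD8α, which does not select for macrophages.

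Macrophages arise from blood monocytes or from cells seeded before birth, and depend on the growth factor CSF1 acting through its receptor, the product of Csf1r. In the liver the resident macrophages are Kupffer cells, and in tumours monocytes are recruited and become tumour-associated macrophages. Lysozyme (Lyz2), the F4/80 antigen (Adgre1), the lysosomal glycoprotein macrosialin (Cd68), apolipoprotein E (Apoe) and the chains of complement C1q (C1qa, C1qb, C1qc) are products widely used to recognise these cells, although Apoe is also made by hepatocytes and Cd68 by other myeloid cells.

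The C1q genes are neighbours on chromosome 4, and their promoters are shown because the 3 chains are made together by macrophages but did not move together in every library. The promoters of Lyz2, the member with the highest level in any library, and of Cd68, whose highest library was another one, are shown for comparison. Sequences run from 250 bases before to 50 bases after the start of the gene (RefSeq, build GRCm38.p6, all on the minus strand, written 5′ to 3′ along the gene). Capitals mark GAGGAA, a core motif of the myeloid factor PU.1, or its reverse complement. The table held promoters for 5 of the 8 members, and C1qa, Csf1r and Adgre1 had none.
C1qb, chr4:136886151-136886450: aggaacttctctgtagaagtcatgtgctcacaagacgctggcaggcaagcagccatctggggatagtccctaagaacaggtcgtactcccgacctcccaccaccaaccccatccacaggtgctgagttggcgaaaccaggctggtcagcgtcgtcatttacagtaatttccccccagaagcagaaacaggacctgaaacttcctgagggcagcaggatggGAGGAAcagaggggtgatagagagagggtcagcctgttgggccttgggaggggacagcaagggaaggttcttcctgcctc
C1qc, chr4:136892865-136893164: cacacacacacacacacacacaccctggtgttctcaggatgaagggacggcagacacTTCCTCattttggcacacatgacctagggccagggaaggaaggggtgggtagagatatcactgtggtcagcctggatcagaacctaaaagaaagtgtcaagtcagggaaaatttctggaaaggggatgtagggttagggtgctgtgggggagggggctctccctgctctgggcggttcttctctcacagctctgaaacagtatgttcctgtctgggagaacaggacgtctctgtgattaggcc
Lyz2, chr10:117282223-117282522: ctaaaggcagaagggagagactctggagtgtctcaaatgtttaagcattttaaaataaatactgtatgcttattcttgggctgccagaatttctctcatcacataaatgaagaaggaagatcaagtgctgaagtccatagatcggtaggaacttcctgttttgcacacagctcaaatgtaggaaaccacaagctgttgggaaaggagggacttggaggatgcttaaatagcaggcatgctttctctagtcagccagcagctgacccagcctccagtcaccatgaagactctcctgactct
Cd68, chr11:69666121-69666420: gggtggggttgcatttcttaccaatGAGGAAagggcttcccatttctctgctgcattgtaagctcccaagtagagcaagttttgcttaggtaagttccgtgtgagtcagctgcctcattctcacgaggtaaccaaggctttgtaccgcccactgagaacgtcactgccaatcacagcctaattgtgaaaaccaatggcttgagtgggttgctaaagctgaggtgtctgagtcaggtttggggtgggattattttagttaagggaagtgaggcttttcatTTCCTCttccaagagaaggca
The match began 30 bases before the start in C1qb and 193 bases before it in C1qc. In Cd68 a match began 225 bases before the start and another at base 30 of the gene. The Lyz2 window did not hold these letters. GAGGAA, on either strand, was present in 28.3% of all 32851 promoters of the table, and a match is a description of these letters only. Of the other motifs searched on both strands, the MAF motif TGCTGA (19.5% of promoters) was found once in C1qb and once in Lyz2, the C/EBP motif TTGCNNAA (10.8%) once in Cd68, and the E-box CACGTG (7.15%) in none of these 4. None of these matches overlapped a GAGGAA match.

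In the coordinates that the deposited tables give, whose genome build could not be settled and is not GRCm38, C1qb lay at 136607440 to 136613498, C1qc at 136617115 to 136620376 and C1qa at 136623228 to 136626114 of chromosome 4, all on the minus strand. Lyz2 lay at 117113236 to 117118226 of chromosome 10, Cd68 at 69555039 to 69556979 of chromosome 11 and Apoe at 19430034 to 19433113 of chromosome 7, also on the minus strand. Adgre1 lay at 57665691 to 57790527 of chromosome 17 and Csf1r at 61233670 to 61265221 of chromosome 18, both on the plus strand. Lyz2 has a near-identical neighbour, Lyz1, with which reads could be shared. Lyz1 was listed at 2.03 RPKM in the CD8 library with the highest Lyz2 (172 RPKM) and at most 0.255 RPKM in every other library.

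Levels are RPKM, reads normalized for gene length and library size, as deposited. Total counts were 707866 in CD4 Vav1CreTet2KO replicate 1 and 7501026 to 17575534 in the other CD4 libraries. The CD8 table gives no counts, and reads recovered from its RPKM summed to 8189300 to 20327809 per library. In CD8 Vav1CreTet2KO replicate 1, 50.6% of low read numbers were odd, against 13.1% to 30.7% in the other 18 libraries, so that its read unit may differ. Tet2 itself was 2.93 to 6.28 RPKM in Vav1CreTet2KO, 3.01 to 7.57 RPKM in Cd4CreTet2KO and 6.57 to 8.06 RPKM in Tet2fl/fl CD8 libraries. In CD4 libraries it was 2.77 to 5.65 RPKM in Vav1CreTet2KO, 4.53 to 7.28 RPKM in Cd4CreTet2KO and 3.87 to 7.02 RPKM in Tet2fl/fl. These are values of the whole gene, to which reads outside the deleted part contribute, so that they do not check the labels. T cell genes were high in all libraries, with Cd3e at 91.3 to 298 RPKM. Cd8a was 99.9 to 230 RPKM in CD8 libraries and at most 0.792 RPKM in CD4 libraries. Cd8b1, the other listed marker of CD8 T cells, was 128 to 201 RPKM in CD8 libraries and 0 to 7.73 RPKM in CD4 libraries. Cd4 was 7.68 and 2.27 RPKM in CD8 Cd4CreTet2KO replicates 1 and 2, and at most 1.59 RPKM in the other 8 CD8 libraries. CD8 Cd4CreTet2KO replicates 1 and 2 stood apart from the other 8 CD8 libraries in most of the 8 genes and in neutrophil markers. Results that rest on these 2 libraries are given with and without them.

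**Figure D1:**
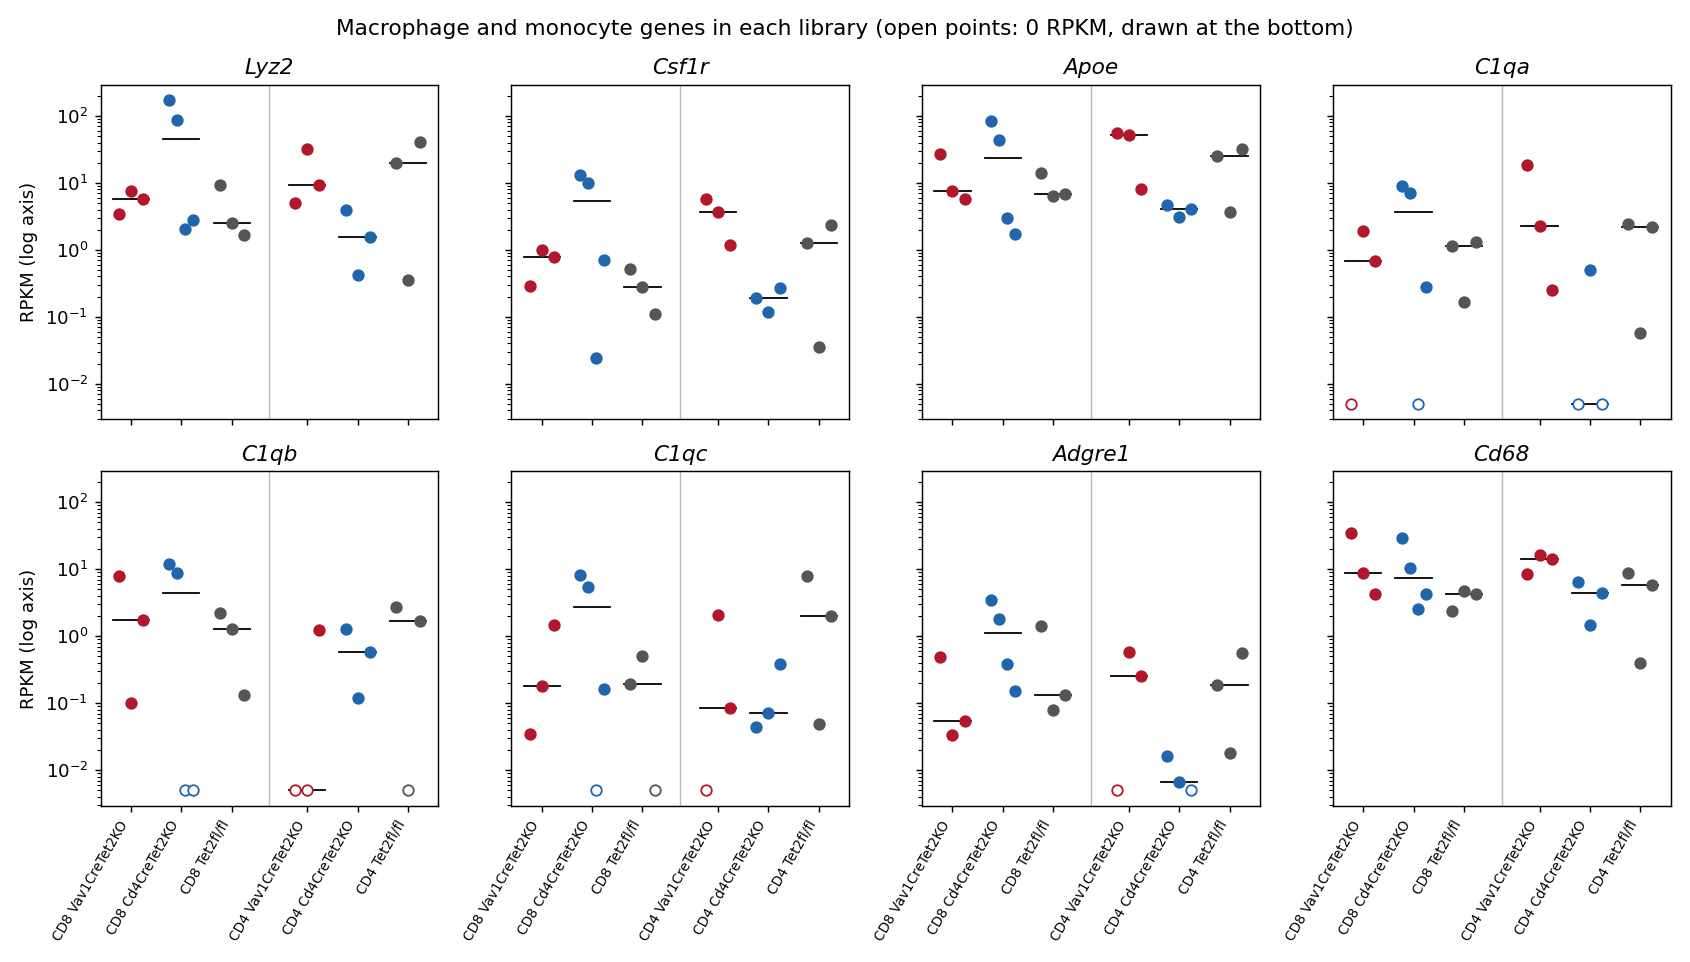
RPKM of the 8 genes in each of the 19 libraries (points, log axis; open points at the bottom are 0), by genotype and cell type, with the group median as a line. In CD8 Cd4CreTet2KO, replicates 1 and 2 are high and replicates 3 and 4 low for nearly all genes, while CD4 Cd4CreTet2KO libraries are mostly low.

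In CD8 T cells the genes were carried by a pair of libraries of 1 genotype. Lyz2, which encodes the bacteria-digesting enzyme lysozyme, was 3.45, 7.61 and 5.67 RPKM in Vav1CreTet2KO, 172, 88.2, 2.06 and 2.82 RPKM in Cd4CreTet2KO, and 9.33, 2.49 and 1.69 RPKM in Tet2fl/fl. Cd4CreTet2KO replicates 1 and 2 were high and replicates 3 and 4 lay within the range of the controls, so that the groups overlapped. In these 2 libraries Lyz2 ranked 120 and 180 among all genes by RPKM, with 10070 and 6856 recovered reads.

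Csf1r, the receptor for CSF1 and IL-34, was 0.289, 1.01 and 0.771 RPKM in Vav1CreTet2KO, 13.2, 9.97, 0.0241 and 0.704 RPKM in Cd4CreTet2KO, and 0.509, 0.277 and 0.110 RPKM in Tet2fl/fl. The same 2 Cd4CreTet2KO libraries were high, and replicate 3 was the lowest of all 10. Adgre1, the F4/80 receptor, was 0.498, 0.0340 and 0.0539 RPKM in Vav1CreTet2KO, 3.48, 1.84, 0.381 and 0.152 RPKM in Cd4CreTet2KO, and 1.42, 0.0800 and 0.135 RPKM in Tet2fl/fl. Tet2fl/fl replicate 1 came close to Cd4CreTet2KO replicate 2 for Adgre1.

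Apoe, a lipid carrier, was 26.5, 7.53 and 5.76 RPKM in Vav1CreTet2KO, 83.5, 43.8, 2.97 and 1.70 RPKM in Cd4CreTet2KO, and 14.2, 6.45 and 6.94 RPKM in Tet2fl/fl. Cd4CreTet2KO replicates 3 and 4 lay below all 3 controls. Hepatocytes also make Apoe. In Vav1CreTet2KO replicate 1, the third highest library, the 6 hepatocyte markers summed to 22.1 RPKM, against 0.442 to 5.21 RPKM in the other 9 CD8 libraries. Apoa2 gave 17.2 RPKM of this sum, and 3 of the 6 markers were at 0 in that library, namely Alb, Apoa1 and Ttr. The part of hepatocytes in the Apoe level was not tested.

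Cd68 had another pattern. It was 35.1, 8.67 and 4.34 RPKM in Vav1CreTet2KO, 29.4, 10.4, 2.51 and 4.24 RPKM in Cd4CreTet2KO, and 2.35, 4.71 and 4.29 RPKM in Tet2fl/fl. The highest library was Vav1CreTet2KO replicate 1, and the groups overlapped. In that library Cd68 gave 47.5% of the summed RPKM of the 8 genes and Lyz2 4.66%, whereas in Cd4CreTet2KO replicates 1 and 2 Lyz2 gave 52.0% and 50.2% and Cd68 8.89% and 5.94%.

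The C1q chains, which assemble into the recognition molecule of the classical complement pathway, were high together in the same 2 Cd4CreTet2KO libraries. C1qa was 0, 1.91 and 0.671 RPKM in Vav1CreTet2KO, 8.90, 7.07, 0 and 0.283 RPKM in Cd4CreTet2KO, and 1.14, 0.166 and 1.33 RPKM in Tet2fl/fl. C1qb was 8.03, 0.101 and 1.77 RPKM in Vav1CreTet2KO, 12.2, 8.89, 0 and 0 RPKM in Cd4CreTet2KO, and 2.22, 1.27 and 0.134 RPKM in Tet2fl/fl. C1qc was 0.0352, 0.183 and 1.45 RPKM in Vav1CreTet2KO, 8.16, 5.39, 0 and 0.163 RPKM in Cd4CreTet2KO, and 0.196, 0.503 and 0 RPKM in Tet2fl/fl. Vav1CreTet2KO replicate 1 held almost only C1qb, with 206 recovered reads against 0 reads of C1qa and 1 read of C1qc. A count of 0 there allows up to 0.122 RPKM of C1qa, at 3 reads. Counts of 0 and the limits they allow cover counting error only, since the values used here carry no molecular identifiers.

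**Figure D2:**
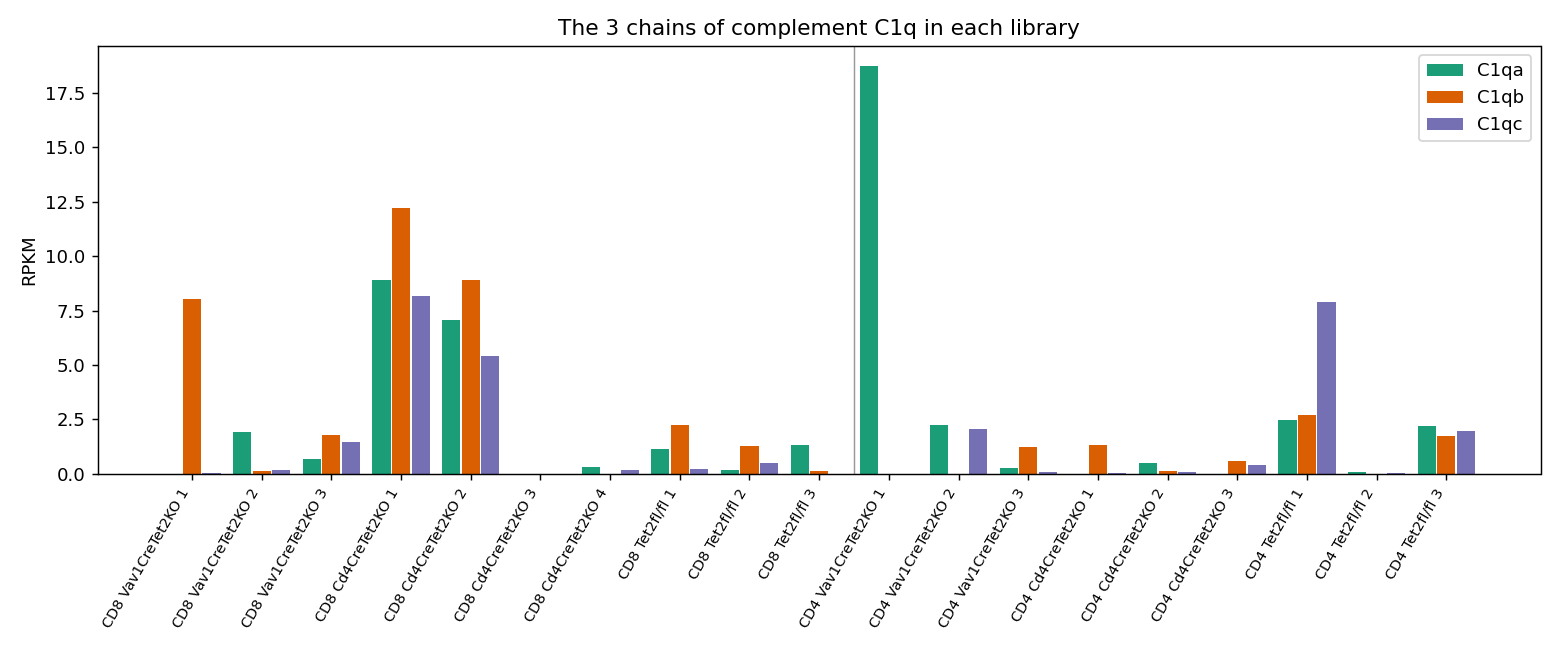
RPKM of C1qa, C1qb and C1qc in each library (bars; the vertical line separates CD8 libraries, left, and CD4 libraries, right). The 3 chains are high together in CD8 Cd4CreTet2KO replicates 1 and 2, while CD8 Vav1CreTet2KO replicate 1 holds C1qb and CD4 Vav1CreTet2KO replicate 1 holds C1qa alone.

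Over the 8 genes, summed RPKM was 74.0, 27.0 and 20.5 in Vav1CreTet2KO, 331, 176, 7.95 and 10.1 in Cd4CreTet2KO, and 31.4, 15.9 and 14.6 in Tet2fl/fl CD8 libraries. Cd4CreTet2KO replicates 1 and 2 were above all 8 other libraries for 7 of the 8 genes, Cd68 being the exception. These 2 libraries were singled out by the same values, and the share of all genes for which they led was not counted. The lower of the 2 was 9.92-fold the highest of the other 8 for Csf1r, 9.45-fold for Lyz2, 3.71-fold for C1qa and for C1qc, 1.65-fold for Apoe, 1.29-fold for Adgre1 and 1.11-fold for C1qb. Replicates 3 and 4 of the same genotype were both below every control in the summed level. These pairs of libraries thus lay on opposite sides of the control range.

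Some, but not all, marker lists of other cell types were also highest in Cd4CreTet2KO replicates 1 and 2. The summed RPKM of 5 neutrophil markers was 88.1 and 53.9 in Cd4CreTet2KO replicates 1 and 2 and 0.0242 to 3.38 in the other 8 CD8 libraries, S100a9 alone giving 57.4 and 33.1 RPKM. In each of the 2 libraries 1 of the 5 was at 0. The 10 Kupffer cell markers summed to 17.5 and 19.1 RPKM there with 0 of 10 at 0, and to 0.544 to 12.2 RPKM in the other 8, where 0 to 8 were at 0. The 7 dendritic cell markers summed to 174 and 57.7 RPKM, against 6.24 to 105 RPKM in the other 8. The 18 other core macrophage genes summed to 635 and 283 RPKM, against 71.5 to 482 RPKM. The 12 monocyte genes summed to 151 and 62.9 RPKM, against 10.6 to 58.6 RPKM. The 16 tumour-associated macrophage genes summed to 267 and 91.0 RPKM, against 26.8 to 107 RPKM. For dendritic, core macrophage and tumour-associated macrophage genes, replicate 2 thus lay within the range of the other 8. The 6 T cell markers summed to 415 and 452 RPKM, the lowest of the CD8 libraries, against 581 to 1173 RPKM in the other 8. The part of each in the levels of the 8 genes was not tested. In bulk libraries, more cells of a type and more RNA per cell cannot be told apart.

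**Figure D3:**
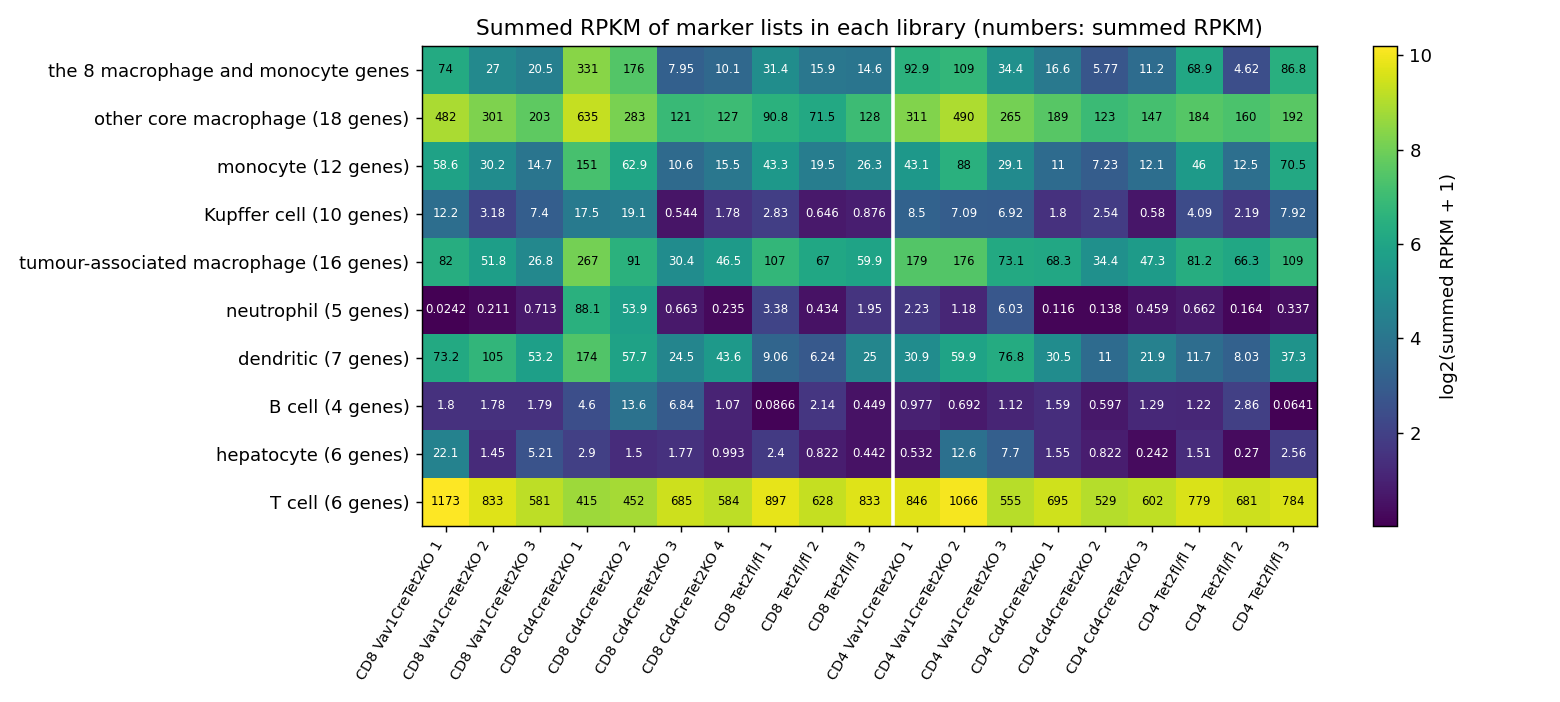
Summed RPKM of the 8 genes and of 9 marker lists (rows) in each library (columns; numbers are summed RPKM, colour is log2(summed RPKM + 1); CD8 left and CD4 right of the white line). CD8 Cd4CreTet2KO replicates 1 and 2 have the highest neutrophil sums (88.1 and 53.9) and the lowest T cell sums of the CD8 libraries. For core macrophage, tumour-associated macrophage and dendritic markers, replicate 2 lies within the range of the other CD8 libraries.

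By limma on log2(RPKM + 1), over 10224 genes that reached 1 RPKM in at least 3 CD8 libraries, 0 of the 8 genes passed an adjusted p of 0.05 in Vav1CreTet2KO against Tet2fl/fl, where 1.46% of all genes did. None had an unadjusted p under 0.05, against 17.3% of all genes, and the ranges of 0 members did not overlap, against 19.9% of all genes. On recovered reads, edgeR called 0 members and DESeq2 called 0, where DESeq2 called 6.0% of genes. The median log2 fold change was 0.32 over the 8 genes and -0.11 over all genes. Cd68 had the largest difference, averaging 16.1 ± 16.7 RPKM in Vav1CreTet2KO and 3.78 ± 1.26 RPKM in Tet2fl/fl (SD, n = 3 each), for a log2 fold change of 1.40 (SE 0.76, adjusted p = 0.363 by limma). Without Vav1CreTet2KO replicate 1, the fold changes of Apoe and C1qb turned to -0.35 and -0.21 on the log2 scale.

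In Cd4CreTet2KO against Tet2fl/fl, 0 of the 8 genes passed by limma, where 0.567% of all genes did. Csf1r alone had an unadjusted p under 0.05, against 12.4% of all genes, and ranges overlapped for all 8, whereas they did not for 17.8% of all genes. Csf1r averaged 5.97 ± 6.61 RPKM in Cd4CreTet2KO (SD, n = 4) and 0.299 ± 0.201 RPKM in Tet2fl/fl (SD, n = 3), with a log2 fold change of 1.66 (SE 0.76, adjusted p = 0.399 by limma). Lyz2 averaged 66.3 ± 81.2 RPKM in Cd4CreTet2KO (SD, n = 4) and 4.51 ± 4.20 RPKM in Tet2fl/fl (SD, n = 3), with a log2 fold change of 2.16 (SE 1.20, adjusted p = 0.505 by limma). DESeq2 on recovered reads called both, at log2 fold changes of 4.07 (adjusted p = 0.0408) for Lyz2 and 4.51 (adjusted p = 0.0312) for Csf1r, where it called 4.02% of genes, and edgeR on the same reads called 0. The median log2 fold change was 0.88 over the 8 genes and -0.15 over all genes. Csf1r, C1qc and Adgre1 entered this test only through Cd4CreTet2KO replicates 1 and 2, so the filter itself favoured higher values in this genotype.

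Without Cd4CreTet2KO replicates 1 and 2, none of the 5 members that limma still tested had a positive fold change. The log2 fold change of Apoe became -1.56, of C1qb -1.02, of C1qa -0.67, of Lyz2 -0.43 and of Cd68 -0.12, with 0 members called. Without replicate 1 alone that of Apoe was -0.30. Csf1r, C1qc and Adgre1 no longer reached 1 RPKM in 3 libraries and were not tested, so these 3 genes entered the test only through the 2 high libraries. In edgeR on recovered reads without the 2 libraries, an alternative chosen after seeing the data, Csf1r was 0.51 and Cd68 0.03 on the log2 scale and the other 6 members were negative. In the authors' deposited table, Lyz2 had a log2 fold change of 4.10 (false discovery rate 6.81e-05) and Csf1r one of 4.54 (8.94e-05) in this comparison, where 2.39% of 19552 genes were under 0.05. The authors' deposited table put no other member under 0.05 in any of its 4 comparisons.

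Between the knockouts, Vav1CreTet2KO against Cd4CreTet2KO, limma called 0 of the 8 genes and 0.0% of all genes in CD8 libraries. At an unadjusted p under 0.05 it had 0 members and 649 of all genes (6.35%), and DESeq2 on recovered reads called 62 genes (0.46%), none of them a member. Fold changes were negative for 7 of the 8 genes, with Cd68 at 0.46 on the log2 scale the exception, and ranges overlapped for all 8, whereas they did not for 4.53% of all genes. Of these 7, Csf1r, C1qc and Adgre1 entered the test only through Cd4CreTet2KO replicates 1 and 2. Lyz2 had a log2 fold change of -1.70 (SE 1.20, adjusted p = 0.736 by limma). Without Cd4CreTet2KO replicates 1 and 2 it was 0.89. Without Vav1CreTet2KO replicate 1 that of Cd68 was -0.32.

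**Figure D4:**
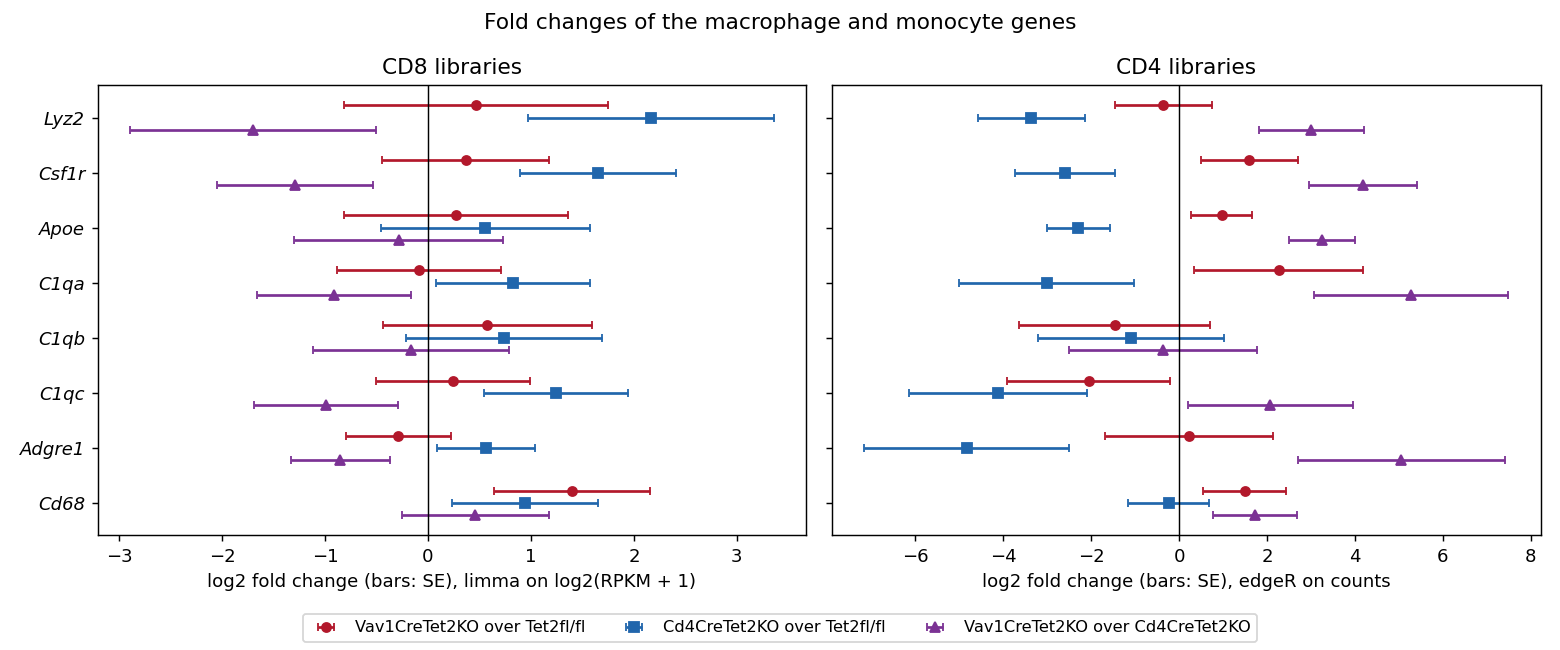
Log2 fold changes of the 8 genes with their standard errors in CD8 (limma, left) and CD4 libraries (edgeR, right), for Vav1CreTet2KO over Tet2fl/fl (circles), Cd4CreTet2KO over Tet2fl/fl (squares) and Vav1CreTet2KO over Cd4CreTet2KO (triangles). None passed the adjusted threshold, and Cd4CreTet2KO over Tet2fl/fl is positive for all 8 genes in CD8 libraries (by limma for none of the 5 tested without replicates 1 and 2) and negative for all 8 in CD4 libraries (Cd68 is at 0.015 by limma). Comparisons of 1 cell type share libraries.

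In CD4 T cells the genes were mostly lowest in Cd4CreTet2KO, whose mean was the lowest of the CD4 groups for each gene but C1qb. Over all 6 groups, from tables normalized separately, its mean was the lowest for 6 of the 8 genes, C1qb and Cd68 being the exceptions. Lyz2 was 4.93, 31.8 and 9.26 RPKM in Vav1CreTet2KO, 3.89, 0.414 and 1.55 RPKM in Cd4CreTet2KO, and 20.1, 0.359 and 40.1 RPKM in Tet2fl/fl. All 3 Vav1CreTet2KO libraries were above all 3 Cd4CreTet2KO libraries, and the controls were split, with replicate 2 the lowest of all 9.

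Csf1r was 5.76, 3.64 and 1.17 RPKM in Vav1CreTet2KO, 0.190, 0.118 and 0.266 RPKM in Cd4CreTet2KO, and 1.27, 0.0355 and 2.34 RPKM in Tet2fl/fl. Adgre1 was 0, 0.579 and 0.256 RPKM in Vav1CreTet2KO, 0.0162, 0.00673 and 0 RPKM in Cd4CreTet2KO, and 0.189, 0.0182 and 0.560 RPKM in Tet2fl/fl. Csf1r did not overlap between the knockouts. Adgre1 lay below all controls in Cd4CreTet2KO, at 2, 1 and 0 counts in Cd4CreTet2KO against 12, 2 and 70 counts in Tet2fl/fl, a separation that rests on 2 counts on either side. In Vav1CreTet2KO replicate 1, the shallowest library, a count of 0 allows up to 0.501 RPKM of Adgre1, so that its place among the libraries is not known at this depth.

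Apoe was 54.9, 51.7 and 8.08 RPKM in Vav1CreTet2KO, 4.71, 3.08 and 4.06 RPKM in Cd4CreTet2KO, and 25.3, 3.70 and 32.1 RPKM in Tet2fl/fl. Cd68 was 8.61, 16.6 and 14.1 RPKM in Vav1CreTet2KO, 6.44, 1.46 and 4.40 RPKM in Cd4CreTet2KO, and 8.96, 0.399 and 5.85 RPKM in Tet2fl/fl. For both genes the Vav1CreTet2KO libraries were all above the Cd4CreTet2KO libraries, and control replicate 2 was low. The 6 hepatocyte markers summed to 0.532, 12.6 and 7.70 RPKM in Vav1CreTet2KO and to at most 2.56 RPKM in the other 6 CD4 libraries; their part in the Apoe level was not tested, and Apoe was highest in the library with 0.532.

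C1qa was 18.7, 2.24 and 0.249 RPKM in Vav1CreTet2KO, 0, 0.503 and 0 RPKM in Cd4CreTet2KO, and 2.45, 0.0568 and 2.19 RPKM in Tet2fl/fl. C1qb was 0, 0 and 1.24 RPKM in Vav1CreTet2KO, 1.30, 0.120 and 0.585 RPKM in Cd4CreTet2KO, and 2.72, 0 and 1.71 RPKM in Tet2fl/fl. C1qc was 0, 2.06 and 0.0862 RPKM in Vav1CreTet2KO, 0.0437, 0.0724 and 0.381 RPKM in Cd4CreTet2KO, and 7.88, 0.0491 and 1.98 RPKM in Tet2fl/fl. All 3 chains were present in Tet2fl/fl replicates 1 and 3 at 1.71 to 7.88 RPKM, while at least 1 chain was under 0.2 RPKM in each of the other 7 libraries. The C1qa value of 18.7 RPKM rests on 36 counts of the shallowest library, where 0 counts allow up to 1.49 RPKM of C1qb and 1.35 RPKM of C1qc, both below the C1qa level.

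Summed over the 8 genes, CD4 libraries held 92.9, 109 and 34.4 RPKM in Vav1CreTet2KO, 16.6, 5.77 and 11.2 RPKM in Cd4CreTet2KO, and 68.9, 4.62 and 86.8 RPKM in Tet2fl/fl. Vav1CreTet2KO did not overlap Cd4CreTet2KO, and the controls spanned the range of Cd4CreTet2KO and much of that of Vav1CreTet2KO. The other core macrophage genes summed to 265 to 490 RPKM in Vav1CreTet2KO, 123 to 189 RPKM in Cd4CreTet2KO and 160 to 192 RPKM in Tet2fl/fl. Monocyte genes summed to 29.1 to 88.0, 7.23 to 12.1 and 12.5 to 70.5 RPKM in the same order. Tumour-associated macrophage genes summed to 73.1 to 179, 34.4 to 68.3 and 66.3 to 109 RPKM. None of these lists overlapped between the knockouts. Some marker lists of other cells also had higher sums in Vav1CreTet2KO than in Cd4CreTet2KO. The 5 neutrophil markers summed to 2.23, 1.18 and 6.03 RPKM in Vav1CreTet2KO, 0.116, 0.138 and 0.459 RPKM in Cd4CreTet2KO, and 0.662, 0.164 and 0.337 RPKM in Tet2fl/fl, with 2 to 3 of the 5 at 0 in each library of the knockouts. The 7 dendritic cell markers summed to 30.9, 59.9 and 76.8 RPKM in Vav1CreTet2KO, 30.5, 11.0 and 21.9 RPKM in Cd4CreTet2KO, and 11.7, 8.03 and 37.3 RPKM in Tet2fl/fl. Neither list overlapped between the knockouts, although Vav1CreTet2KO replicate 1 and Cd4CreTet2KO replicate 1 were close for dendritic markers. The share of gene lists without overlap was not counted. S100a9 alone gave 2.07, 0.948 and 5.16 RPKM in the Vav1CreTet2KO libraries, so their neutrophil sums rest mostly on 1 gene. The 10 Kupffer cell markers summed to 6.92 to 8.50 RPKM in Vav1CreTet2KO, 0.580 to 2.54 RPKM in Cd4CreTet2KO and 2.19 to 7.92 RPKM in Tet2fl/fl. Hmox1 alone gave 7.24, 6.89 and 1.12 RPKM in the Vav1CreTet2KO libraries, where 7, 5 and 0 of the 10 were at 0. In Cd4CreTet2KO 5 to 6 and in Tet2fl/fl 5 to 7 of the 10 were at 0. The Kupffer sums of Vav1CreTet2KO replicates 1 and 2 thus rest mostly on 1 gene. The part of these lists in the levels of the 8 genes was not tested.

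By edgeR's quasi-likelihood test on the counts of 13554 genes, 0 of the 8 genes passed an adjusted p of 0.05 in Vav1CreTet2KO against Tet2fl/fl, where 0.00738% of genes did. None had an unadjusted p under 0.05, against 11.9% of all genes, and ranges overlapped for all 8, whereas they did not for 15.7% of all genes. DESeq2, which called 3.33% of genes, and limma also called 0 members. Without Vav1CreTet2KO replicate 3 edgeR called 819 of 14409 genes (5.68%) in place of 1, and 0 members. Csf1r had a log2 fold change of 1.60 (SE 1.10, adjusted p = 0.622 by edgeR), Apoe one of 0.97 (SE 0.69, adjusted p = 0.643) and Lyz2 one of -0.35 (SE 1.11, adjusted p = 0.932). The median was 0.59 over the 8 genes and -0.16 over all genes. Without Vav1CreTet2KO replicate 1, C1qa had a log2 fold change of -0.33 in place of 2.27, and without Tet2fl/fl replicate 3 Lyz2 had one of 0.70.

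In Cd4CreTet2KO against Tet2fl/fl, edgeR called 0 of the 8 genes, where 0.0295% of genes passed, and DESeq2, which called 0.17% of genes, and limma called 0 members. Lyz2, Csf1r, Apoe and Adgre1 had unadjusted p under 0.05, as had 2.5% of all genes. All 8 fold changes were negative by edgeR (by limma that of Cd68 was 0.015), with a median of -2.80 on the log2 scale against 0.00 over all genes. Apoe had a log2 fold change of -2.29 (SE 0.72, adjusted p = 1.00 by edgeR) and Lyz2 one of -3.36 (SE 1.21, adjusted p = 1.00). Ranges did not overlap for Adgre1 alone, lower in Cd4CreTet2KO, against 7.93% of all genes that were lower without overlap. With no filter on low counts edgeR called Lyz2 (adjusted p = 0.00367) and Apoe (0.00124), where it called 0.184% of genes. Control replicate 2 stood apart from the other controls, at 4.62 RPKM summed over the 8 genes, below all 3 Cd4CreTet2KO libraries.

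In Vav1CreTet2KO against Cd4CreTet2KO, 0 of the 8 genes passed edgeR's test, where 0.0664% of genes did. Apoe averaged 38.2 ± 26.1 RPKM in Vav1CreTet2KO and 3.95 ± 0.822 RPKM in Cd4CreTet2KO (SD, n = 3 each), with a log2 fold change of 3.26 (SE 0.75, adjusted p = 0.105 by edgeR). Csf1r averaged 3.52 ± 2.30 RPKM in Vav1CreTet2KO and 0.191 ± 0.0739 RPKM in Cd4CreTet2KO (SD, n = 3 each), with a log2 fold change of 4.19 (SE 1.22, adjusted p = 0.211 by edgeR). Lyz2, Csf1r, Apoe and Cd68 were higher without overlap, 4 of the 8, against 4.14% of all genes. Lyz2, Csf1r, Apoe, C1qa and Adgre1 had unadjusted p under 0.05, as had 10.7% of all genes. The median was 3.13 over the 8 genes and -0.19 over all genes. DESeq2 called Csf1r (adjusted p = 0.00463) and Apoe (0.00121), where it called 2.99% of genes, and limma called 0 members. With no filter edgeR called Lyz2 (adjusted p = 0.00382), Csf1r (0.00477) and Apoe (1.8e-08), where it called 2.0% of genes. Without Vav1CreTet2KO replicate 3, edgeR called Apoe at a log2 fold change of 3.72 (adjusted p = 0.0127), where it called 4.99% of genes.

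Each of 8 animals gave both a CD8 and a CD4 library, so that levels could be set side by side within an animal, without a test because the tables were normalized separately. The summed level was higher in the CD4 library in 7 of 8 animals, the exception being the mouse of Tet2fl/fl replicate 2, at 15.9 RPKM in CD8 and 4.62 RPKM in CD4 cells. Apoe was higher in the CD4 library in 7 of 8 animals, Lyz2, Csf1r and Cd68 in 6, C1qc in 5, C1qa and C1qb in 4 and Adgre1 in 3. The share over all genes was not counted. C1qa was 0 in both libraries of the CD8 Cd4CreTet2KO replicate 3 animal, a tie counted as not higher. For the Vav1CreTet2KO replicate 1 animal, CD4 counts of 0 allow up to 0.501 RPKM of Adgre1 and 1.35 RPKM of C1qc. The CD8 levels of that animal were 0.498 and 0.0352 RPKM, so these pairs are not settled. The animals of CD8 Cd4CreTet2KO replicates 1 and 2 gave no CD4 library here, so the high CD8 levels have no partner.

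**Figure D5:**
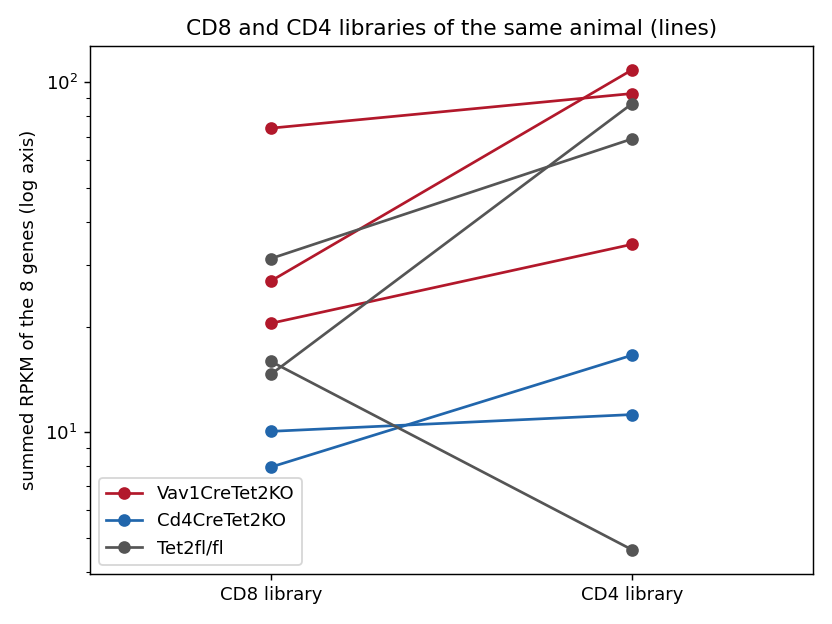
Summed RPKM of the 8 genes in the CD8 and the CD4 library of each of the 8 animals that gave both (points joined by lines, log axis, coloured by genotype). The line rises in 7 of 8 animals and falls in 1 Tet2fl/fl animal.

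Groups next to each other in the order of level mostly overlapped. Of 40 neighbouring pairs in the order of the 6 groups by mean RPKM, over the 8 genes, 38 overlapped in range. Neighbours are the pairs with the closest means, and the share of such pairs over all genes was not counted. Groups further apart could separate, as the CD4 knockouts did for 4 of the 8 genes, against 4.14% of all genes. For Apoe, CD4 Cd4CreTet2KO at 3.95 ± 0.822 RPKM lay below CD8 Tet2fl/fl at 9.19 ± 4.33 RPKM without overlap (SD, n = 3 each). For Adgre1, CD8 Vav1CreTet2KO at 0.195 ± 0.262 RPKM lay above CD4 Cd4CreTet2KO at 0.00765 ± 0.00816 RPKM without overlap (SD, n = 3 each). Both pairs compare tables that were normalized separately. CD8 Cd4CreTet2KO had the highest mean of the 6 groups for Lyz2 at 66.3 ± 81.2 RPKM (SD, n = 4), an SD larger than the mean.

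Other myeloid lists were tested in the same fits. Of 18 other core macrophage genes 13 were tested in CD8 cells, and Tyrobp and Mpeg1, an adaptor of activating receptors and a pore-forming protein of phagocytes, were higher in Vav1CreTet2KO than in Tet2fl/fl, 2 of 13 against 0.45% of all genes called higher. Tyrobp was 71.1 ± 53.1 RPKM in Vav1CreTet2KO and 3.57 ± 2.93 RPKM in Tet2fl/fl (SD, n = 3 each), with a log2 fold change of 3.95 (adjusted p = 0.0257 by limma). Mpeg1 was 74.1 ± 19.6 RPKM in Vav1CreTet2KO and 8.32 ± 7.04 RPKM in Tet2fl/fl (SD, n = 3 each), with a log2 fold change of 3.23 (adjusted p = 0.0396 by limma). Neither gene is made by macrophages alone, and the dendritic cell markers Flt3 and Clec9a rose in the same comparison, at log2 fold changes of 2.72 and 2.80 (adjusted p = 0.0279 and 0.0422 by limma), 2 of 7; their part was not tested. The 7 dendritic markers summed to 73.2, 105 and 53.2 RPKM in Vav1CreTet2KO, against 9.06, 6.24 and 25.0 RPKM in Tet2fl/fl. Cd40lg, 1 of 2 listed markers of CD4 T cells, also rose, to 10.4 ± 2.39 RPKM in Vav1CreTet2KO, against 0.481 ± 0.752 RPKM in Tet2fl/fl (SD, n = 3 each; adjusted p = 0.0098 by limma), and its part was not tested. The other marker, Cd4 itself, was not called. It was 0.0955, 1.59 and 0.674 RPKM in Vav1CreTet2KO and 0 RPKM in each Tet2fl/fl CD8 library. With no filter on low genes, limma called 0 of 19552 genes higher in this comparison. The rises of Tyrobp, Mpeg1, Flt3, Clec9a and Cd40lg were thus not called at that setting.

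Of 16 tumour-associated macrophage genes 10 were tested in CD8 cells and 1 fell in Vav1CreTet2KO against Tet2fl/fl, where 1.01% of all genes were called lower. It was Axl, a receptor of apoptotic-cell clearance, at 1.96 ± 0.496 RPKM in Vav1CreTet2KO and 15.4 ± 4.72 RPKM in Tet2fl/fl (SD, n = 3 each; log2 fold change -2.44, adjusted p = 0.0107 by limma). Of 16 lysosomal genes 15 were tested and Ctsd, the protease cathepsin D, fell to 44.5 ± 10.8 RPKM in Vav1CreTet2KO, against 102 ± 27.8 RPKM in Tet2fl/fl (SD, n = 3 each; log2 fold change -1.17, adjusted p = 0.0487 by limma). Of the monocyte (8 tested), Kupffer cell (4), complement (4), CSF1 and CSF2 axis (6) and Apoe and lipid (12) lists, 0 genes were called in that comparison by limma, with 2, 0, 1, 5 and 3 at an unadjusted p under 0.05, against 17.3% of all genes. In the other 5 comparisons 0 genes of these lists were called by limma or edgeR, with 0 to 7 genes of a list at an unadjusted p under 0.05, against 2.5% to 12.4% of all genes. The 7 were reached in CD4 Vav1CreTet2KO against Cd4CreTet2KO by the core macrophage (7 of 15 tested) and tumour-associated macrophage genes (7 of 14 tested), against 10.7% of all genes.

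The genes most like the 8 were found by the correlation of log2(RPKM + 1) with the mean of the 8 over the libraries of a table, among genes of at least 1 RPKM on average. Over the 10 CD8 libraries they included Fcgr3, Fscn1, Clec7a, Itgam, Lrp1, Cxcl2 and Pla2g7, and each was highest in Cd4CreTet2KO replicate 1. The correlation of Fcgr3 was 0.96 over the 10 libraries and 0.67 over the 8 without replicates 1 and 2, and that of Pla2g7 0.94 and -0.05. Over those 8 libraries it was 0.77 for Fscn1, 0.44 for Clec7a, 0.33 for Itgam and for Cxcl2, and 0.25 for Lrp1. Over the 9 CD4 libraries they were Mtarc2, Stip1, Faf1, Med30, Fbxo2, Itgam, Rpl9-ps6 and Pdia3, with Itgam in both lists. These are descriptions over libraries that differ in depth and in markers of other cells, and the part of either was not tested.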

How the data were processed

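Sorted CD8 and CD4 T cells were sequenced as total RNA (SMARTer Stranded Pico kit, per the labels' protocols). The authors deposited read counts and RPKM per gene for CD4 libraries and RPKM for CD8 libraries, per the file headers, with log2 fold changes, p-values and false discovery rates of their own. The submitters' processing notes name GRCm38 and mm10 but no aligner or counter is named in what was used here, and the tables' coordinates differ from GRCm38. Of the per-sample columns, 28 were read and 18 were not used. The members and gene lists were chosen with earlier results of these data known.

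CD4 counts were tested with edgeR 4.0.16 (filterByExpr with minimum count 10 and minimum total 15, TMM, quasi-likelihood, R 4.3.3), with 9 libraries in 1 fit. For CD8 RPKM, limma 3.58.1 (trended prior) was run on log2(RPKM + 1), with 10 libraries in 1 fit. A gene needed 1 RPKM in at least 3 libraries. P-values were adjusted over all tested genes (Benjamini-Hochberg, threshold 0.05). A fold change on log2(RPKM + 1) understates the change of low genes. All 134905 CD8 values above 0 that had a gene length implied by the CD4 table came out as whole reads (within 0.01), and these recovered reads were used with edgeR and DESeq2 1.42.0 as alternatives. The scripts were tested on simulated data. Replicates are separate animals, by the numbers in the library names. All 8 members are named with every library value. Of other lists the called genes are named, and by the rule up to 3 of each list by mean level could be, few of which are, and the genes most like the members are the 8 of largest correlation, of which 1 in CD8 cells is not reported here. Single markers beyond these were chosen after their values were seen.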

Additional observations from a re-analysis of the deposited data

How the results depend on the processing

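Settings tried were other pseudocounts, filters, scalings and tools, the compared groups alone, each library left out, and both high CD8 Cd4CreTet2KO libraries left out; edgeR on recovered reads without those 2 libraries was chosen after seeing the data. The number of members called was 0 in 81 of 86 alternatives. It was 2 for CD8 Cd4CreTet2KO against Tet2fl/fl with DESeq2 on recovered reads, 2 for CD4 Cd4CreTet2KO against Tet2fl/fl with no filter, and 3 with no filter and 2 with DESeq2 for CD4 Vav1CreTet2KO against Cd4CreTet2KO. Leaving out each library gave 0 to 1 in that last comparison, and 1 came without Vav1CreTet2KO replicate 3. Of the log2 fold changes of single members, 582 alternatives kept direction and side of the threshold, 10 passed it and 54 turned; the causes were not tested.

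Replicate numbers did not pair the libraries: same-numbered libraries of different genotypes had correlations of their deviations of -0.08 to 0.07 in CD8 and -0.09 to 0.10 in CD4 cells. With a replicate block 0 members were called in each of the 6 comparisons, and the log2 fold change of Lyz2 in CD4 Vav1CreTet2KO against Tet2fl/fl was 0.57 and that of C1qb in CD4 Cd4CreTet2KO against Tet2fl/fl 0.443.

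With both high libraries left out, Cd4CreTet2KO against Tet2fl/fl gave log2 fold changes in limma of -0.428 (Lyz2), -1.557 (Apoe), -0.666 (C1qa), -1.018 (C1qb) and -0.119 (Cd68), and in edgeR on recovered reads of -0.616 (Lyz2), -1.716 (Apoe), -2.335 (C1qa), -7.97 (C1qb), -1.326 (C1qc), -0.714 (Adgre1), 0.508 (Csf1r) and 0.03 (Cd68). Vav1CreTet2KO against Cd4CreTet2KO gave 0.894 (Lyz2), 1.831 (Apoe), 0.58 (C1qa), 1.594 (C1qb) and 1.521 (Cd68) in limma, and 1.061 (Lyz2), 0.812 (Csf1r), 2.311 (Apoe), 2.383 (C1qa), 9.498 (C1qb), 2.813 (C1qc), 2.045 (Cd68) and -0.645 (Adgre1) in edgeR. C1qb was then at 0 in both remaining Cd4CreTet2KO libraries, so its fitted values depend on the prior count. On recovered reads C1qa in CD8 Vav1CreTet2KO against Tet2fl/fl was 0.045 (edgeR with TMM), 0.042 (DESeq2), 0.039 (edgeR with RLE) and 0.048 without the high libraries. By limma, Lyz2 was 0.253 in CD4 Vav1CreTet2KO and Cd68 0.015 in CD4 Cd4CreTet2KO, each against Tet2fl/fl. With a pseudocount of 0.1, C1qb in CD8 Vav1CreTet2KO against Cd4CreTet2KO was 0.5.

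Leaving out each library moved log2 fold changes across 0 for these members. In Vav1CreTet2KO against Tet2fl/fl the ranges were -0.346 to 0.668 for Apoe, -0.475 to 0.294 for C1qa and -0.215 to 1.303 for C1qb in CD8 cells, and -1.304 to 0.705 for Lyz2, -0.327 to 2.83 for C1qa and -0.626 to 1.613 for Adgre1 in CD4 cells. In Cd4CreTet2KO against Tet2fl/fl they were -0.299 to 1.356 for Apoe in CD8 cells and -0.77 to 0.401 for Cd68 in CD4 cells. In Vav1CreTet2KO against Cd4CreTet2KO they were -1.082 to 0.573 for Apoe, -0.954 to 0.564 for C1qb and -0.315 to 1.064 for Cd68 in CD8 cells, and -7.478 to 0.402 for C1qb and -1.178 to 3.535 for C1qc in CD4 cells.

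Counts of all genes called also depended on the tool, the filter and 1 CD4 library. In CD8 cells, Vav1CreTet2KO against Tet2fl/fl had 149 by limma, 20 with no filter and 809 by DESeq2, Cd4CreTet2KO against Tet2fl/fl had 58, 8 and 542, and Vav1CreTet2KO against Cd4CreTet2KO had 0, 0 and 62. The 20 and the 8 genes called with no filter were all lower in the knockout. In CD4 cells the same comparisons had 1, 4 and 9 by edgeR, 383, 37 and 403 with no filter and 451, 23 and 405 by DESeq2. Without Vav1CreTet2KO replicate 3, edgeR called 819 genes in place of 1 in CD4 Vav1CreTet2KO against Tet2fl/fl, and 719 in place of 9 in CD4 Vav1CreTet2KO against Cd4CreTet2KO. Depth limits CD4 Vav1CreTet2KO replicate 1 most, where 3 reads of C1qb make 1.49 RPKM.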
